A study of Saccharomyces cerevisiae with 8 samples.

Results

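The 9 genes described here are the budding yeast hexose transporter genes HXT1 to HXT7 and the glucose sensor genes SNF3 and RGT2. They were chosen by name and were all present among the 6569 genes of the deposited table. The hexose transporters are plasma membrane proteins that let glucose into the cell by facilitated diffusion. They differ in affinity, so yeast changes the set it makes with the glucose around it. Hxt1 and Hxt3 are low-affinity transporters of cells with plenty of glucose, Hxt2 and Hxt4 serve lower glucose, Hxt6 and Hxt7 are high-affinity transporters held down by abundant glucose, and Hxt5 is made in slowly growing cells. Snf3 and Rgt2 look like transporters but act as sensors, Snf3 of low and Rgt2 of high glucose. Their signal removes Mth1 and Std1, the partners of the repressor Rgt1, from HXT promoters. A separate repressor, Mig1, acts on several HXT genes when glucose is abundant and is held in check by the Snf1 kinase.

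Poly(A) RNA was sequenced from strand-specific libraries of cultures in YPD, a rich glucose medium, at an optical density of 0.5. The wild type was BY4741, a MATa laboratory strain with leu2-delta-0 and his3-delta-0 together with ura3-delta-0 and met15-delta-0, grown at 30 °C. Cultures received 200 ng/mL rapamycin, which blocks the growth-promoting kinase complex TORC1, for 10 min or for 60 min, or stayed untreated, with 2 libraries each. The other pair was grown at 26 °C with 1 library each. It set prp4-1 pGAL-IFH1, in which the GAL1 promoter drives the ribosomal protein gene activator IFH1 (k-HIS3:pGAL1-IFH1), labelled as lowering IFH1 by about 50%, against prp4-1. Both strains carry prp4-1, a mutation in a spliceosomal protein, and the prp4-1 strain is MATalpha with ura3-52, his3-delta-200, ade2- and a mutant leu2 allele. The label of prp4-1 pGAL-IFH1 lists no further alleles. The labels call the rapamycin cultures biological replicates, and the table's columns carry library numbers only. The replicates are therefore named here by those numbers, 21 and 24 untreated, 22 and 25 at 10 min, 23 and 26 at 60 min.

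The values are signal per gene, scaled per library by the authors, with totals from 2025663 to 3319861 per library. The files do not say how many reads a value rests on. The signal cannot tell fewer cells that make a transcript from less transcript per cell. Markers of the labels were measured in the same libraries. The wild-type libraries had STE2 at 720 to 1058 and STE3 at 8.34 to 14.6, and the prp4-1 libraries had STE2 at 22.5 to 28.7 and STE3 at 1008 to 1629, which is the pattern of MATa and of MATalpha cells. URA3 was listed at 0 in the 6 wild-type libraries. In the pair, URA3 was listed at 0 in prp4-1 pGAL-IFH1 and stood at 111 in prp4-1, and LEU2 stood at 622 in prp4-1 pGAL-IFH1 and 1386 in prp4-1. Among genes picked after their values were seen, AIF1 was at 195 in prp4-1 pGAL-IFH1 and listed at 0 in prp4-1, and ASP3-1, one of several near copies, was at 359 in prp4-1 pGAL-IFH1 and 2.38 in prp4-1. The strains thus differed in signal at genes other than IFH1. Whether this bears on any value below was not tested. IFH1 was at 86.1 in prp4-1 pGAL-IFH1 and 154 in prp4-1.

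The 9 genes have no intron and overlap no other gene in the deposited models. HXT4 (chromosome VIII, 287081 to 288811), HXT1 (VIII, 290913 to 292625) and HXT5 (VIII, 294669 to 296447) lie in a row on the reverse strand, with 2101 and 2043 bases between them. HXT7 (IV, 1154216 to 1155928), HXT6 (IV, 1159608 to 1161320) and HXT3 (IV, 1162957 to 1164660) form another row on the reverse strand, with 3679 and 1636 bases between them. HXT2 (XIII, 288079 to 289704), SNF3 (IV, 111580 to 114234) and RGT2 (IV, 213351 to 215642) stand on the forward strand. The coordinates are those of the sacCer3 build.

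HXT6 and HXT7 are near copies, and this limits how far their values can be read apart. Their coding sequences of 1713 bases each, read from the RefSeq R64 genome, differ at 3 bases, all near the 3′ end. Counted from the A of the start codon, and with the HXT6 base first, these are T1632C, G1666A and T1677C, of which G1666A changes the amino acid. The stretches around them are shown with the differing bases in capitals. The first pair covers bases 1617 to 1647 and the second pair bases 1651 to 1692 of the coding sequence.
HXT6, chrIV:1159674-1159704, reverse strand: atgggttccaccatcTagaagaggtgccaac
HXT7, chrIV:1154282-1154312, reverse strand: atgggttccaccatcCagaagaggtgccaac
HXT6, chrIV:1159629-1159670, reverse strand: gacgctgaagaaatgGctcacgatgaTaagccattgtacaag
HXT7, chrIV:1154237-1154278, reverse strand: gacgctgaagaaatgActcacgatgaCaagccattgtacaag
Of all 50-base windows in either gene, 95.1% also occur elsewhere in the genome. No source used here states how reads that fit both were divided. The split between HXT6 and HXT7 is therefore uncertain, and their values are not independent. The same share was 14.9% for HXT3, 4.99% for HXT1, 4.05% for HXT5 and 2.5% for HXT4, and no such window was found for HXT2, SNF3 or RGT2. HXT3 was 81.9% identical to HXT1 and 81.1% identical to HXT7 over the aligned coding sequence. HXT4 was 81.7% identical to HXT7 and 81.6% to HXT6, and SNF3 was 56.3% identical to RGT2. How reads from the shared windows of HXT1, HXT3, HXT4 and HXT5 were divided is not stated either. Whether such reads bear on the low signal of HXT4, HXT6 and HXT7 was not tested.

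The upstream DNA of the 9 genes was examined for short sequences that known regulators read. Whether these sequences bear on the changes described below was not tested. The 1000 bases before each start codon were searched on both strands for CGGANNA, the Rgt1 motif, for CGGGG or TGGGG, the core of the Mig1 motif, for AGGGG, the stress response element read by Msn2 and Msn4, and for GATAAG, read by GATA factors. AGGGG and the Mig1 core share GGGG and differ in the letter before it. HXT3 held 9 matches to CGGANNA and HXT1 held 8, against a median of 1 over 5996 protein-coding genes. Of those genes, 0.0167% held at least 9 and 0.0334% at least 8. The 9 genes are among the 5996, so the first share counts HXT3 itself and the second counts HXT3 and HXT1. The other transporters held 2 to 4, SNF3 and RGT2 held 0, and 66.5% of all genes held at least 1. A part of each upstream region rich in matches is printed with CGGANNA in capitals, on either strand. HXT1 held as many matches farther out, at 962, 922, 777 and 736 bases before the start codon. Its part nearer the start codon is printed. The printed part starts 492 bases before the HXT1 start codon and 546 bases before that of HXT3.
HXT1, chrVIII:292842-293117, reverse strand: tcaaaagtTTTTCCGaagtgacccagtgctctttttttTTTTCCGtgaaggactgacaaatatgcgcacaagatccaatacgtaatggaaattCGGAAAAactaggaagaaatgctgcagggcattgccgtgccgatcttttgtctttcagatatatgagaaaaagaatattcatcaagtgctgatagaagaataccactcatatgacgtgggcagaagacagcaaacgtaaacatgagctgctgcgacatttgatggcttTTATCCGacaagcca
HXT3, chrIV:1164965-1165206, reverse strand: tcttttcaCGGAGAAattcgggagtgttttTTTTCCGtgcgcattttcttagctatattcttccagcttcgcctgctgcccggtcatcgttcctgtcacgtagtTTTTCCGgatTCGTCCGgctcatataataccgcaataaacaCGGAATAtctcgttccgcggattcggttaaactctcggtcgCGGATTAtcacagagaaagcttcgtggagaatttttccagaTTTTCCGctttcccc

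HXT4 held 7 matches to the Mig1 core, HXT2 held 6, HXT3 held 5 and HXT7 held 4, and the other members held 1 to 3. At least 7 were held by 0.183% of all genes, at least 6 by 0.65%, and at least 1 by 69.9%. HXT6 held 5 matches to AGGGG and HXT7 held 4, against 55% of all genes with at least 1, 0.634% with at least 5 and 2.23% with at least 4. HXT5 held 2, HXT1, HXT3, HXT4 and RGT2 held 1 each, and HXT2 and SNF3 held 0. GATAAG was found 3 times before SNF3, 2 times each before HXT5, HXT6 and RGT2 and 1 time before HXT4. Of all genes, 40.0% held at least 1, 10.8% at least 2 and 2.12% at least 3. The upstream windows of HXT4, HXT5, HXT6 and SNF3 reach into neighbouring annotated genes (AHT1, PAL2, YDR344C and SEC31). The densest stretches are printed with the Mig1 core in capitals for HXT2 and HXT4, and with AGGGG in capitals for HXT6 and HXT7, on either strand. A match is a string of letters, not a measured binding site.
HXT2, Mig1 core, chrXIII:287399-287671, forward strand: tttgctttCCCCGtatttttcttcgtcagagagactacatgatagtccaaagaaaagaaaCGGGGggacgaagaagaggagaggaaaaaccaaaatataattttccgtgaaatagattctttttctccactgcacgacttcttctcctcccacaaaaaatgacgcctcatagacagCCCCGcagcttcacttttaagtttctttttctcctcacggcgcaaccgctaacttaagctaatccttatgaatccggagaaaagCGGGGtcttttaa
HXT4, Mig1 core, chrVIII:289048-289317, reverse strand: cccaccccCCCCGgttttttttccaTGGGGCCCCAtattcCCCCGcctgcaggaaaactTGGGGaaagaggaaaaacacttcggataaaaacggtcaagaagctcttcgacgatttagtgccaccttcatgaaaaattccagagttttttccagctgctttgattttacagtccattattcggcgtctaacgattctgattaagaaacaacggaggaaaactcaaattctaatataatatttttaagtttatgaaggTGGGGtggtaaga
HXT6, AGGGG, chrIV:1161822-1162098, reverse strand: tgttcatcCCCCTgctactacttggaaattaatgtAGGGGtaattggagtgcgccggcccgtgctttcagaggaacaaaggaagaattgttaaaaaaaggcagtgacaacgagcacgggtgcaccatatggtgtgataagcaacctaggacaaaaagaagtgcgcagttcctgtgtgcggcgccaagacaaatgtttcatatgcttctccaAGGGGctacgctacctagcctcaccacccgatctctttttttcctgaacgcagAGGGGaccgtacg
HXT7, AGGGG, chrIV:1156159-1156307, reverse strand: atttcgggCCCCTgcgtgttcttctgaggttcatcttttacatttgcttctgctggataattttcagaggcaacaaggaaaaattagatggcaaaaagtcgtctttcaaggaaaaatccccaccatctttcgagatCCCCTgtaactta

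**Figure D1:**
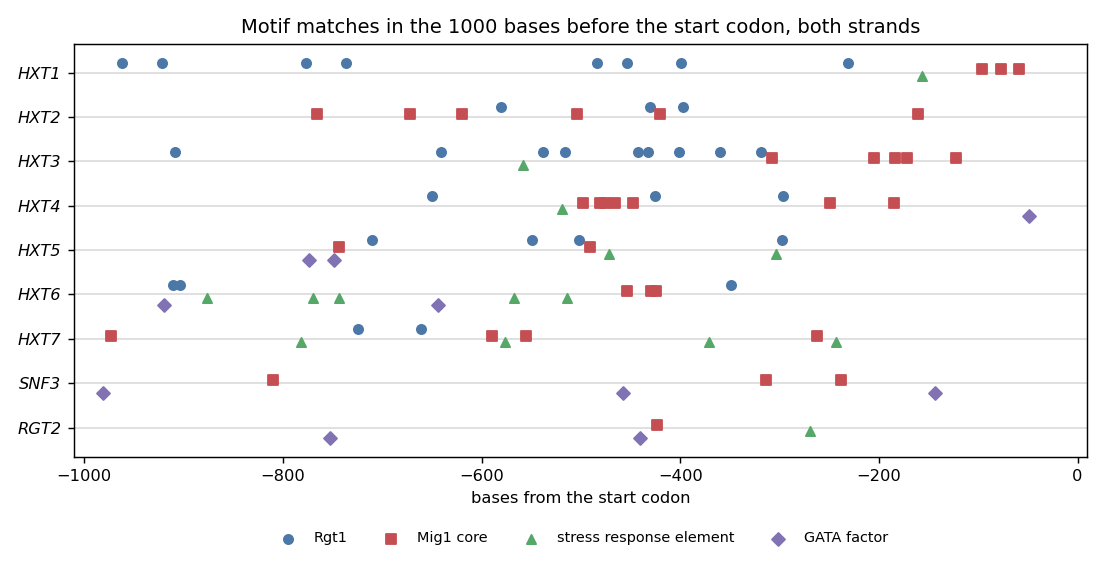
Matches to the 4 motifs in the 1000 bases before each start codon, by distance from the start codon in bases, with 1 row per gene. The CGGANNA matches of HXT1 (8) and HXT3 (9) outnumber those of the other genes, which have 0 to 4.

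In untreated wild-type cells the summed HXT1 to HXT7 signal came almost wholly from HXT3, HXT2 and HXT1. How reads shared by HXT6 and HXT7 were counted is not stated. Whether the signal of these 2 genes understates their part of the transcript pool therefore cannot be told. The HXT genes are 1626 to 1779 bases long, so dividing by length changes a ratio between them by at most 1.09 times, and the order of these 3 was the same per kilobase. In untreated libraries 21 and 24, HXT3 made up 54.4% and 56.6% of the summed signal per kilobase of HXT1 to HXT7, HXT2 made up 29.4% and 27.1%, and HXT1 made up 15.2% and 15.2%. HXT4, HXT6 and HXT7 averaged 13.0 ± 2.23, 13.4 ± 0.389 and 13.1 ± 0.686 scaled signal (SD, n = 2), and these 3 levels did not differ beyond their spread. HXT5 was lowest, at 2.31 ± 0.271. The sensors stood at 24.6 ± 1.14 for SNF3 and 32.4 ± 5.06 for RGT2.

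The first comparison asked what 10 min of rapamycin did to these transcripts. HXT1 fell, HXT4, HXT6 and HXT7 rose, and so did the sensor gene RGT2. In limma's moderated test over 6127 genes, 5 of the 9 genes were higher and 2 lower at a Benjamini-Hochberg adjusted p under 0.05. Changes were widespread at this time, since 57% of the genes tested were called, 26.8% higher and 30.2% lower, and 76.8% had groups without overlap. The median log2 change was 0.74 over the 9 genes and -0.015 over all genes. Log2 changes are of scaled signal plus 1, which understates the change of low genes such as HXT5.

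HXT1, the low-affinity transporter gene, had 189 and 192 scaled signal at 10 min, against 632 and 535 in untreated cells. Both treated libraries lay far below both untreated ones, and the log2 change was -1.61 (SE 0.0901, limma adjusted p = 3.57e-06). HXT3, the other low-affinity transporter gene, had 1745 and 1448 at 10 min, against 2255 and 1991 in untreated cells. The groups did not overlap, but its log2 change of -0.41 (SE 0.137, limma adjusted p = 0.0333) was small. The HXT3 call ended under 5 alternatives, among them scaling each library to its total signal (-0.20, limma adjusted p = 0.184) and leaving out library 21 (-0.32, limma adjusted p = 0.0948) or library 25 (-0.28, limma adjusted p = 0.199).

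HXT2 had 1062 and 752 scaled signal at 10 min, against 1164 and 908 in untreated cells. The groups overlapped, and the log2 change of -0.20 (SE 0.216, limma adjusted p = 0.459) did not pass. It turned to 0.014 under total-signal scaling and to 0.047 without library 25. The ratio of HXT1 to HXT3 within a library, which no scaling touches, was lower at 10 min. HXT1 signal was 0.108 and 0.132 of that of HXT3 at 10 min, against 0.280 and 0.269 in untreated cells.

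HXT4 and the high-affinity genes HXT6 and HXT7 were higher at 10 min, while HXT2, which also serves lower glucose, was not called. HXT4 had 42.7 and 23.4 scaled signal at 10 min, against 14.6 and 11.4 in untreated cells, which is 1.23 on the log2 scale (SE 0.275, limma adjusted p = 0.00647). HXT6 had 40.9 and 25.6 at 10 min, against 13.6 and 13.1 in untreated cells, which is 1.22 on the log2 scale (SE 0.205, limma adjusted p = 0.00161). HXT7 had 52.9 and 32.4 at 10 min, against 12.6 and 13.6 in untreated cells, which is 1.59 on the log2 scale (SE 0.212, limma adjusted p = 0.000461). For all 3 the groups did not overlap, and library 22 was the higher of the 10 min pair. Without library 22 the log2 changes were 0.81 for HXT4, 0.89 for HXT6 and 1.25 for HXT7, with the calls kept. With HXT6 and HXT7 summed as 1 gene, an alternative chosen after seeing the data, the log2 change was 1.45 (limma adjusted p = 0.000509). HXT4, HXT6 and HXT7 together made up 4.35% and 3.29% of the summed HXT1 to HXT7 signal at 10 min, against 0.997% and 1.1% in untreated cells.

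HXT5, the transporter gene of slow growth, had 6.71 and 3.71 scaled signal at 10 min, against 2.5 and 2.12 in untreated cells. Its log2 change of 0.87 (SE 0.301, limma adjusted p = 0.0406) was called, and the groups did not overlap. Leaving out library 22 lowered it to 0.51 and ended the call (limma adjusted p = 0.25), as did leaving out library 21 (limma adjusted p = 0.0504) or library 24 (limma adjusted p = 0.0867), using a pseudocount of 10 (limma adjusted p = 0.077) or dropping the filter (limma adjusted p = 0.0745).

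Of the sensor genes, RGT2 was called and SNF3 was not, a contrast between genes that was not itself tested. RGT2, for the sensor of high glucose, had 51.5 and 58.1 scaled signal at 10 min, against 28.9 and 36.02 in untreated cells, which is 0.74 on the log2 scale (SE 0.120, limma adjusted p = 0.00125). Its groups did not overlap. SNF3, for the sensor of low glucose, had 26.9 and 25.7 at 10 min, against 25.4 and 23.8 in untreated cells. The log2 change of SNF3 was 0.09 (SE 0.0993, limma adjusted p = 0.455), which did not pass, although it was 0.30 and passed under total-signal scaling (limma adjusted p = 0.0392).

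**Figure D2:**
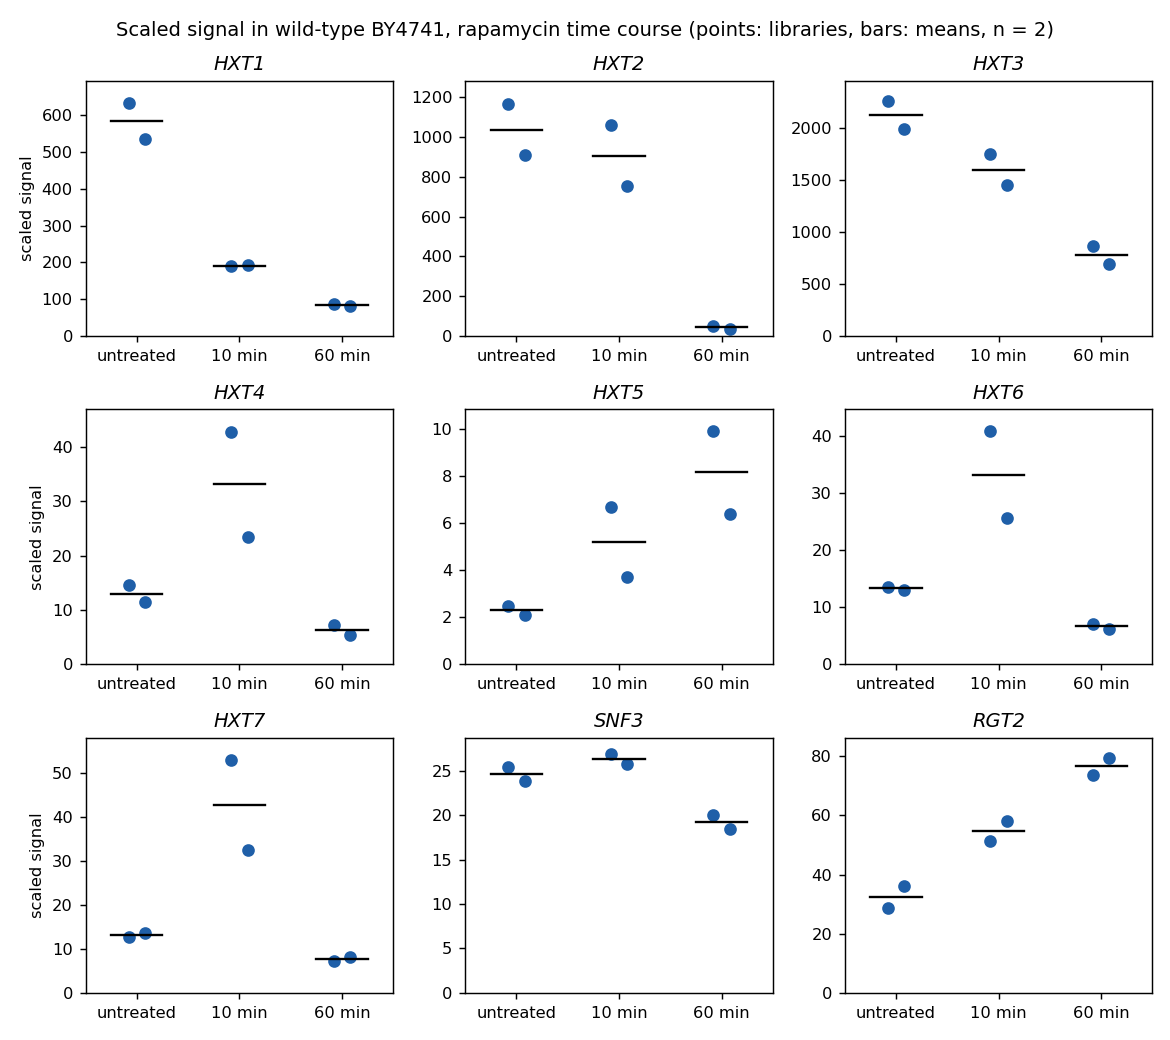
Scaled signal of the 9 genes in each wild-type library (points), untreated and after 10 and 60 min of rapamycin, with the mean of the 2 libraries as a bar. HXT4, HXT6 and HXT7 peak at 10 min, HXT2 drops between 10 and 60 min, and RGT2 is higher at each later time.

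A second comparison set 60 min of rapamycin against untreated cells. HXT1, HXT2 and HXT3, the 3 transporter genes with most signal in untreated cells, were all lower, HXT2 by the most. HXT5 and RGT2 were higher. Of the 9 genes, 2 were higher and 7 lower in limma's moderated test. Of the 6127 genes, 77.1% were called, 38.6% higher and 38.5% lower, and 88.1% had groups without overlap. The median log2 change was -0.91 over the 9 genes and -0.0042 over all genes. How the libraries are scaled matters for the smaller changes at this time. With libraries scaled to equal total signal, the genes' median log2 change shifted by 0.66, with 4003 higher and 1121 lower genes, and 3 higher and 3 lower among the 9. At 10 min the same shift was 0.21, with 2560 higher and 1149 lower genes, and 6 higher and 1 lower among the 9.

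HXT2 had 50.7 and 35.2 scaled signal at 60 min, against 1164 and 908 in untreated cells. Its log2 change of -4.57 (SE 0.216, limma adjusted p = 5.17e-07) was the largest of the 9 genes. HXT1 had 87.5 and 82.2 at 60 min, against 632 and 535 in untreated cells, which is -2.76 on the log2 scale (SE 0.0901, limma adjusted p = 6.86e-08). HXT3 had 866 and 690 at 60 min, against 2255 and 1991 in untreated cells, which is -1.45 on the log2 scale (SE 0.137, limma adjusted p = 2.85e-05). Each of these falls left no overlap between the groups and was called under all 13 alternatives tried. Several of the alternatives change the p-value and leave the log2 change as it was. HXT3 fell least of the 3, and its share of the summed signal per kilobase was 83.5% and 82.7% at 60 min, against 54.4% and 56.6% in untreated cells. HXT2 signal was 0.0585 and 0.0510 of that of HXT3 at 60 min, against 0.516 and 0.456 in untreated cells.

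HXT4, HXT6 and HXT7 were back below their untreated level. HXT4 had 7.21 and 5.38 scaled signal at 60 min, against 14.6 and 11.4 in untreated cells, which is -0.94 on the log2 scale (SE 0.275, limma adjusted p = 0.0143). HXT6 had 7.03 and 6.30 at 60 min, against 13.6 and 13.1 in untreated cells, which is -0.91 on the log2 scale (SE 0.205, limma adjusted p = 0.00427). HXT7 had 7.24 and 8.06 at 60 min, against 12.6 and 13.6 in untreated cells, which is -0.70 on the log2 scale (SE 0.212, limma adjusted p = 0.0164). No group overlapped, yet total-signal scaling ended all 3 calls, at -0.34 for HXT4, -0.29 for HXT6 and -0.09 for HXT7. The HXT4 call also ended without library 26 and the HXT7 call without library 23 or with a pseudocount of 10. As a share of the summed HXT1 to HXT7 signal, HXT4, HXT6 and HXT7 together stood at 2.07% and 2.37% at 60 min, against 0.997% and 1.1% in untreated cells. The sum itself was 1036 and 834 at 60 min, against 4095 and 3474 in untreated cells.

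HXT5 had 9.94 and 6.39 scaled signal at 60 min, against 2.5 and 2.12 in untreated cells, which is 1.44 on the log2 scale (SE 0.301, limma adjusted p = 0.00277). Both treated libraries were higher, at a level still low among the transporters and close to those of HXT4, HXT6 and HXT7 at that time. RGT2 had 73.8 and 79.5 at 60 min, against 28.9 and 36.02 in untreated cells, which is 1.22 on the log2 scale (SE 0.120, limma adjusted p = 3.6e-05). Both rises were called under all 13 alternatives. SNF3 had 20.0 and 18.5 at 60 min, against 25.4 and 23.8 in untreated cells, which is -0.34 on the log2 scale (SE 0.0993, limma adjusted p = 0.0143). Under total-signal scaling the SNF3 change turned to 0.31 (limma adjusted p = 0.024), so its direction depends on the scaling, and the call also ended without library 26 (limma adjusted p = 0.0964). The ratio of RGT2 to SNF3 signal per kilobase within a library does not depend on scaling. It was 4.28 and 4.98 at 60 min and 2.22 and 2.61 at 10 min, against 1.32 and 1.75 in untreated cells.

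**Figure D3:**
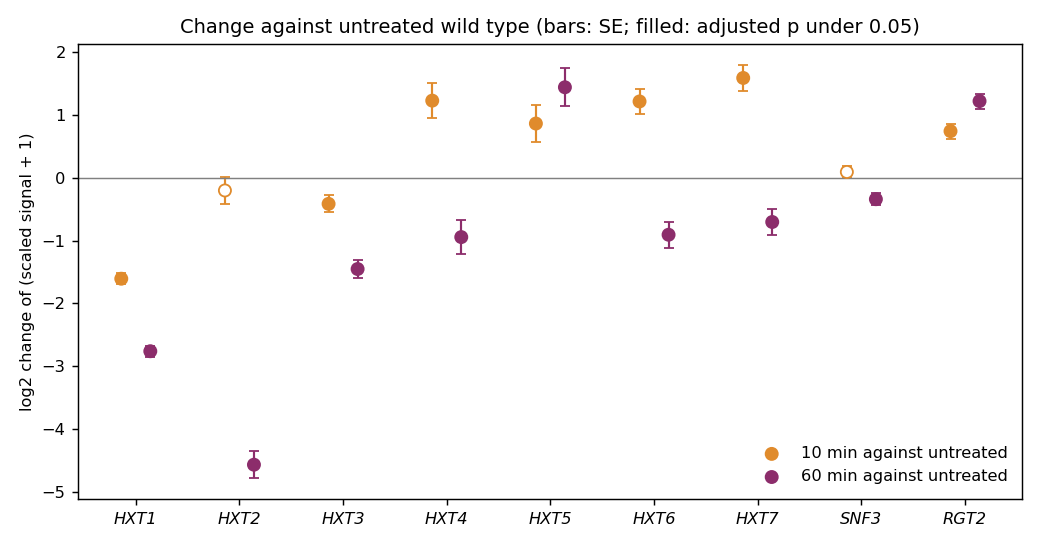
Log2 change of scaled signal plus 1 against untreated wild type for the 9 genes after 10 and 60 min of rapamycin. Points are limma estimates, bars are standard errors, and filled points passed an adjusted p under 0.05. HXT4, HXT6 and HXT7 lie above 0 at 10 min and below 0 at 60 min, where their calls ended under total-signal scaling. HXT5 and RGT2 lie above 0 at both times and HXT1 and HXT3 below 0 at both.

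**Figure D4:**
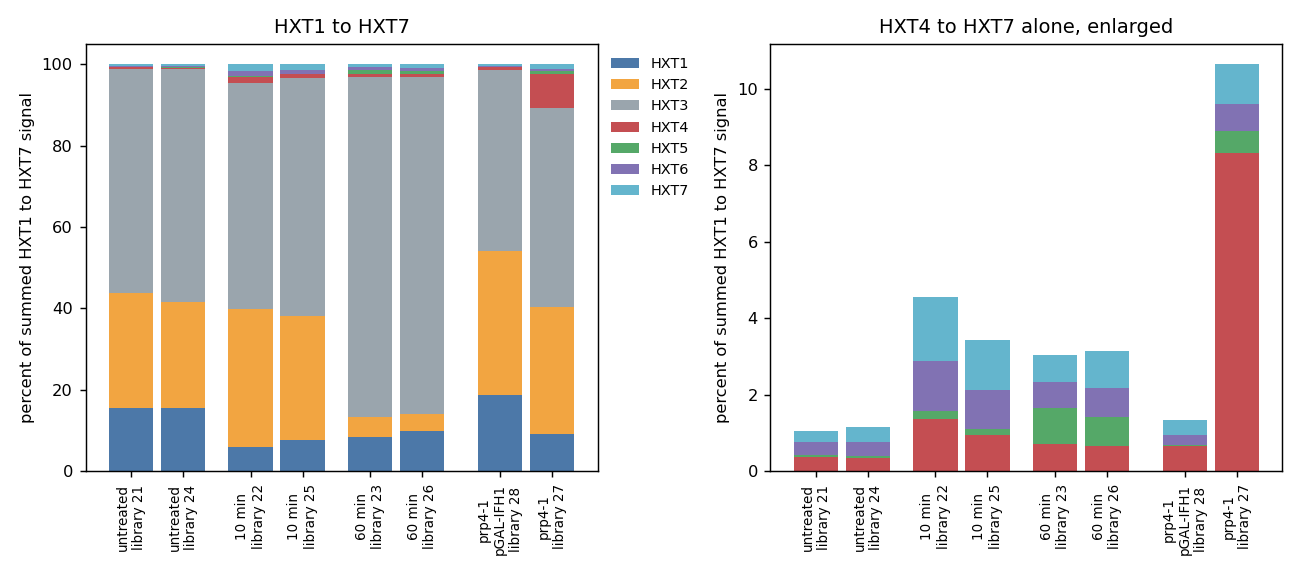
Share of each gene in the summed scaled signal of HXT1 to HXT7, in percent, by library, with HXT4 to HXT7 enlarged in the right panel. HXT3 takes over 80% at 60 min, and in the prp4-1 library HXT4 alone takes 8.32%.

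The 2 times were also compared directly, in the same fit over the 6 libraries. The log2 change between them uses no untreated library, while its SE and p-value rest on all 6. Of the 9 genes, 1 was higher and 7 lower at 60 than at 10 min, against a background of 69.2% of all genes called, 35.4% higher and 33.8% lower, with 87% free of overlap. HXT2 moved furthest, at 50.7 and 35.2 scaled signal at 60 min, against 1062 and 752 at 10 min, which is -4.37 on the log2 scale (SE 0.216, limma adjusted p = 1.42e-06). HXT7 (-2.30), HXT4 (-2.17) and HXT6 (-2.12) followed, with HXT1 at -1.16 and HXT3 at -1.04. These 6 falls were called under all 13 alternatives. RGT2 was higher by 0.48 (SE 0.120, limma adjusted p = 0.00821), a call that ended without library 22 (limma adjusted p = 0.065) or library 26 (limma adjusted p = 0.0579). SNF3 was lower (log2 change -0.43), which became 0.011 under total-signal scaling. HXT5 overlapped between the times and did not pass (log2 change 0.58, SE 0.301, limma adjusted p = 0.123), but it did under total-signal scaling (0.99) and without library 22 (0.93).

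The genes with the most similar profiles were taken by Euclidean distance between centred log2 values over the 6 wild-type libraries, among the 5581 other genes averaging 10 or more (5582 for HXT5). HXT4 and HXT6 were each other's nearest gene, at a distance of 0.288, and HXT7 was second nearest to both, at 0.602 from HXT4 and 0.436 from HXT6. HXT6 and HXT7 share most of their sequence, so the distance between them is not that of independent profiles. ENA2 was nearest to HXT7, at 0.359. Nearest to HXT1 were NHP2 (0.213) and RRB1 (0.251), nearest to HXT2 were RPL30 (0.436) and ASC1 (0.488), and nearest to HXT3 were CCT5 (0.218) and TCP1 (0.225). HXT5 had YFL041W-A (0.503) and CWP1 (0.504), SNF3 had AIM24 (0.0741) and GLC7 (0.0769), and RGT2 had TGL2 (0.135) and TMN2 (0.165).

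Genes around the transporters were followed as lists, to be read against the 57% of all genes called at 10 min and the 77.1% called at 60 min. Counts under total-signal scaling are to be read against that scaling's own calls over 6132 genes. These were 2560 higher and 1149 lower at 10 min, and 4003 higher and 1121 lower at 60 min. In the rest of the hexose transporter family, 5 of the 10 genes in the table (HXT8 to HXT11 and GAL2) had enough signal to be tested. HXT11 was the single called gene at 10 min, with 5.57 and 5.82 scaled signal at 10 min, against 2.997 and 3.64 in untreated cells (log2 change 0.64, limma adjusted p = 0.0329). At 60 min limma called 0 of the 5, and 0 had an unadjusted p under 0.05, while 3 were higher under total-signal scaling.

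Of 8 genes between the sensors and Rgt1, 1 was higher and 2 lower at 10 min, and 2 were higher and 3 lower at 60 min. With the authors' scaling the share called was below that of all genes at both times, which did not hold under total-signal scaling. RGT1, for the repressor itself, rose by 0.24 at 10 min and 0.55 at 60 min on the log2 scale. STD1, for a partner of Rgt1, stood at -0.84 at 10 min and -0.46 at 60 min, and YCK2, for a membrane casein kinase that acts with the sensors, at -0.65 and -1.09. SKP1 (0.44) and CDC53 (-0.17), for parts of the ubiquitin ligase that removes Mth1 and Std1, were called at 60 min. MTH1, for the other Rgt1 partner, did not pass at either time (limma adjusted p = 0.351 and 0.741). Under total-signal scaling 3 were higher and 2 lower at 10 min, and 6 were higher and 1 lower at 60 min, with CDC53 turned to 0.50 and STD1 to 0.22, of which STD1 was not called.

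Of 16 genes of the Snf1 and Mig1 arm of glucose repression, 2 were higher and 4 lower at 10 min, and 5 were higher and 8 lower at 60 min. With the authors' scaling, the share called was below that of all genes at 10 min and near it at 60 min. Total-signal scaling gave 9 higher and 1 lower at 10 min, and 10 higher and 4 lower at 60 min. At both times that share was near the share of all genes called under the same scaling. The 3 with the smallest p were HXK2, for the hexokinase that also acts in repression, SIP2, for a subunit of the Snf1 kinase, and TUP1, for a corepressor. HXK2 had 780 and 711 scaled signal at 60 min, against 3412 and 3171 in untreated cells, a log2 change of -2.14 (limma adjusted p = 4.47e-07). SIP2 was at 0.82 at 10 min and 1.02 at 60 min, and TUP1 at -0.26 and -1.14.

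Of 10 genes for the ubiquitin ligase Rsp5 and arrestin-type adaptors, which direct transporters to degradation, 8 were higher and 1 lower at 10 min, and 9 were higher and 1 lower at 60 min. Total-signal scaling gave 8 higher and 0 lower at 10 min, and 10 higher and 0 lower at 60 min. Of all 6132 genes tested under that scaling, 2560 were higher at 10 min and 4003 at 60 min. With the authors' scaling, the median log2 change of the 10 genes was 0.34 at 10 min and 0.87 at 60 min. Over all genes it was -0.015 and -0.0042. Under total-signal scaling the medians were 0.55 and 1.54, against 0.19 and 0.66 over all genes. BUL1 had 109 and 111 scaled signal at 10 min and 159 and 158 at 60 min, against 68.3 and 70.7 in untreated cells. ROD1 was at log2 changes of 0.55 and 1.17 and ALY1 at 0.35 and 0.93. The gene on the lower side at 60 min was RSP5, at -0.19, which turned to 0.48 under total-signal scaling.

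Of 10 genes for sugar phosphorylation, disaccharide use and related transport, limma called 6 higher at 10 min, and 4 higher and 3 lower at 60 min. The share called was near that of all genes at both times. Total-signal scaling gave 7 higher at 10 min and 5 higher at 60 min, with none lower at either. Beside these, 2560 and 4003 of 6132 genes were higher under that scaling. The hexokinase gene HXK1 had 834 and 623 scaled signal at 10 min, against 53.3 and 56.5 in untreated cells, a log2 change of 3.69 (limma adjusted p = 3.98e-07), and 95.3 and 84.5 at 60 min. The glucokinase gene GLK1 was at 2.85 at 10 min and 1.25 at 60 min, and EMI2 at 2.23 and 0.03, the last without a call. At 60 against 10 min, 6 of the 10 were lower, beside 33.8% of all genes. The log2 change was -2.99 for HXK1, -2.20 for EMI2 and -1.60 for GLK1, and also -1.51 for MAL31 and -1.13 for MAL11, maltose transporter genes named after their values were seen.

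The pair with lowered IFH1 had 1 library each, so its differences have no replicate check and no test was made. HXT4, HXT5, HXT6 and HXT7 were lower in prp4-1 pGAL-IFH1 than in prp4-1 by more than 2-fold, and 0 of the 9 genes were higher by as much. Of the 6222 genes averaging 1 or more over these libraries, 20% differed by more than 2-fold, 11.5% lower and 8.5% higher. HXT4 had 13.4 scaled signal in prp4-1 pGAL-IFH1 and 215 in prp4-1, a log2 ratio of -3.90, and only 0.611% of genes had a lower ratio. HXT5 had 0.798 in prp4-1 pGAL-IFH1 and 14.8 in prp4-1, a log2 ratio of -3.13 that moved to -4.05 with a pseudocount of 0.1 and to -1.20 with a pseudocount of 10. HXT6 had 5.74 in prp4-1 pGAL-IFH1 and 18.5 in prp4-1 (log2 ratio -1.53), and HXT7 had 7.92 in prp4-1 pGAL-IFH1 and 26.7 in prp4-1 (log2 ratio -1.63).

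HXT1, HXT2, HXT3 and the sensor genes differed by less than 2-fold in the pair. HXT1 had 394 scaled signal in prp4-1 pGAL-IFH1 and 232 in prp4-1, a log2 ratio of 0.76. HXT2 had 741 in prp4-1 pGAL-IFH1 and 810 in prp4-1 (-0.13), and HXT3 had 932 in prp4-1 pGAL-IFH1 and 1263 in prp4-1 (-0.44). SNF3 had 36.4 in prp4-1 pGAL-IFH1 and 22.4 in prp4-1 (0.68), and RGT2 had 53.0 in prp4-1 pGAL-IFH1 and 53.3 in prp4-1 (-0.01). HXT4, HXT6 and HXT7 together made up 1.29% of the summed HXT1 to HXT7 signal in prp4-1 pGAL-IFH1 and 10.1% in prp4-1. The lists are to be read beside the 11.5% of all genes lower and 8.5% higher by more than 2-fold. Of the 10 sugar phosphorylation and disaccharide genes, 4 were lower by more than 2-fold and 0 higher. HXK1 had 13.5 in prp4-1 pGAL-IFH1 and 641 in prp4-1 (log2 ratio -5.46), GLK1 stood at -3.83, STL1, for a glycerol transporter, at -2.84 and EMI2 at -2.28. Of the 8 genes between the sensors and Rgt1, MTH1 (-2.24) and CDC53 (-1.06) were lower by more than 2-fold. In the Snf1 and Mig1 arm MIG3 was higher (1.16) and TOS3 lower (-1.70), and 0 of the 10 arrestin and Rsp5 genes lay past 2-fold. In the rest of the transporter family, 1 of 7 genes lay past 2-fold, HXT17, with 3.46 in prp4-1 pGAL-IFH1 and listed at 0 in prp4-1. With both libraries grown in the same medium but as single cultures, the strain and the culture cannot be told apart.

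**Figure D5:**
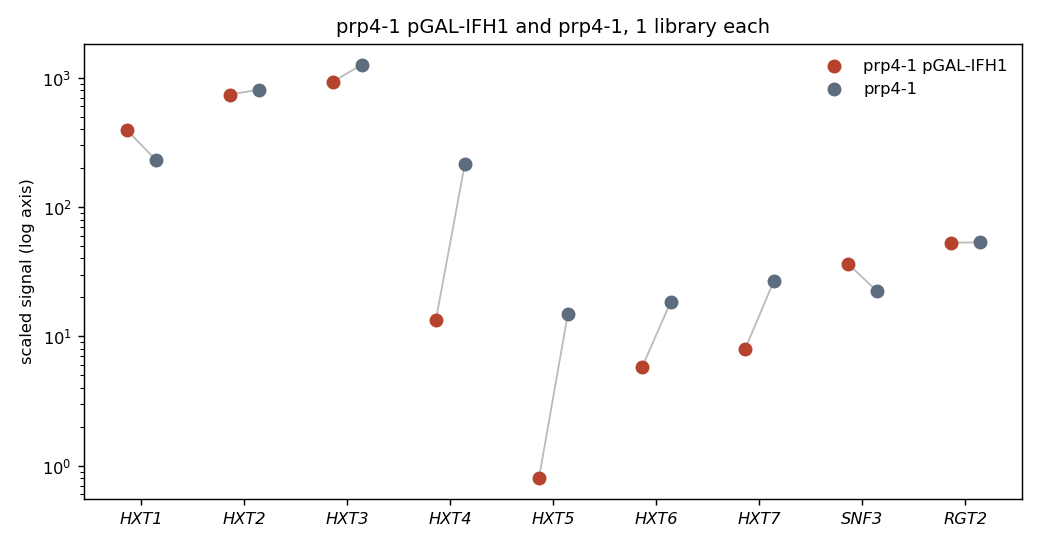
Scaled signal of the 9 genes on a log axis in prp4-1 pGAL-IFH1 and in prp4-1, 1 library each, with a line joining the values of a gene. HXT4 (13.4 in prp4-1 pGAL-IFH1 and 215 in prp4-1) and HXT5 (0.798 and 14.8) lie furthest apart.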

How the data were processed

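Poly(A) RNA from 8 cultures was sequenced. TopHat and Bowtie were used with sacCer3, per the submitters' processing notes. Their versions, and how reads were summed per gene, are not stated in the labels. The deposited table holds scaled signal per gene, which the authors obtained by dividing by 1 constant per library. A further 8 per-sample columns, before that scaling, were left out. The deposited gene models give exon coordinates, and 99.2% of the 5807 names matched to R64 had the same start and end there.

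In wild type, log2 of scaled signal plus 1 was fitted with limma 3.58.1 (R 4.3.3, trend on mean signal) over the 6 libraries by group. The fit kept 6127 genes averaging 1 or more. A gene was called where its p-value, adjusted over all genes by Benjamini-Hochberg, lay under 0.05. Groups have 2 libraries, so p-values rest on few samples. The prp4-1 pair was compared by log2 ratios of signal plus 1. Sequences were read from RefSeq R64 with Biopython 1.88. The limma script was tested on simulated data.

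All 9 genes are named, with the 2 nearest profiles of each. Of other lists, called genes are named where there are at most 5, and otherwise the 3 with the smallest p. The genes and lists were chosen with earlier results of these data known. Alternatives covered pseudocount, filter, trend, scaling, samples in the fit, summing HXT6 and HXT7, and leaving out each library.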

Additional observations from a re-analysis of the deposited data

Results flagged for a closer look

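The effects of rapamycin at 10 min and at 60 min differed by the direct test of 60 against 10 min for 8 of the 9 genes, where 69.2% of all genes passed it. The log2 changes were -1.16 for HXT1, -4.37 for HXT2, -1.04 for HXT3, -2.17 for HXT4, -2.12 for HXT6, -2.30 for HXT7, -0.43 for SNF3 and 0.48 for RGT2. For HXT4, HXT6 and HXT7 the change against untreated cells was called in opposite directions at the 2 times. The calls at 60 min ended for all 3 under total-signal scaling. The SNF3 difference was absent under total-signal scaling (0.011, limma adjusted p = 0.93), and what lies behind these differences was not tested.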

How the results depend on the processing

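Of the 24 calls on the 9 genes in the 3 wild-type comparisons, 16 were kept under all 13 alternatives. All 24 were kept with a pseudocount of 0.1, with median-of-ratios scaling and in fits of the 2 compared groups only. The median-of-ratios factors of the 6 libraries lay from 0.999 to 1.005. That scaling therefore left the values almost unchanged and is no separate check of the scaling. Dropping the filter or the trend, or fitting the 2 compared groups only, changes the p-value and not the log2 change. The same holds for leaving out a library of the group not compared. The 13 alternatives are thus fewer than 13 separate checks. Total-signal scaling kept 18, ended 5 and reversed that of SNF3 at 60 min against untreated (0.31). It also turned HXT2 at 10 min to 0.014 and SNF3 at 60 against 10 min to 0.011, neither with a call. Leaving out 1 library kept 21 to 23 of the 24, and HXT2 at 10 min ranged from -0.45 to 0.047. The genes called numbered 5 to 7 at 10 min, 7 to 9 at 60 min and 7 to 8 for 60 against 10 min when a library was left out, a fit that takes the lone library of a group to vary as the other groups do. In the pair, 4 genes lay past 2-fold, or 3 with a pseudocount of 10, which took HXT6 to -0.85, and total-signal scaling moved the median of all genes there to 0.12. No paired analysis was possible because the columns carry library numbers and no replicate numbers, and their order was not used to pair them. Read depth is unknown, and the signal of HXT5 in untreated cells lies near the pseudocount.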
